A study of Mus musculus with 8 samples.

Results

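This report describes 10 genes of the BCL2 family in mouse small intestinal organoids cultured without or with RANKL, the ligand of the receptor RANK. The members are 4 survival genes (Bcl2, Bcl2l1, Mcl1 and Bcl2l2), 3 effector genes (Bax, Bak1 and Bok) and 3 BH3-only genes (Bcl2l11, Pmaip1 and Bad). They were taken by symbol, after the Ensembl identifiers of the count table had been matched to gene names, from 54532 listed genes. All 10 were found, and all 10 passed the filter on low counts with 9971 genes in all.

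The proteins of this family decide at the mitochondrion whether a cell enters apoptosis. Survival members such as BCL2, BCL-XL (from Bcl2l1) and MCL1 hold the effectors BAX and BAK in check, and the effectors, once active, open the outer mitochondrial membrane so that cytochrome c leaves and caspases are switched on. BH3-only proteins such as BIM (from Bcl2l11), NOXA (from Pmaip1) and BAD bind the survival proteins and lift their hold. In the gut epithelium the family is known for its part in the turnover of crypt cells and in the response to radiation.

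The 8 libraries were 4 of control organoids and 4 of RANKL-treated organoids. Such organoids are grown from intestinal crypts in a gel with epidermal growth factor, NOGGIN and R-spondin, and hold epithelium without the underlying tissue. The dose and duration of RANKL are not named for these libraries, nor is it stated whether the replicates came from separate cultures or animals, so each p-value measures the spread between these samples, which may be technical. Messenger RNA was read at its 3′ end, where 1 transcript gives about 1 tag whatever its length. CPM values (counts scaled to a common library total) can thus be set side by side between genes, but only roughly. Annotated 3′ ends and overlaps with other genes differ between the members, and their effect on the counts was not tested. Protein isoforms of one gene (BCL-XL and BCL-XS, or the forms of BIM and MCL1) could not be told apart.

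Total counts ran from 583663 to 7807298, and control replicate 4 and RANKL replicate 1 were the shallowest. All 6 epithelial markers were detected, with a summed level of 5298 to 6163 CPM in control and 5360 to 5828 CPM in RANKL libraries. The 6 immune markers together stayed at or below 4.96 CPM in control and 9.69 CPM in RANKL libraries, with Cd3e at 0 counts. The 5 M cell markers, which label the antigen-sampling cells of the epithelium, summed to 44.3 to 54.2 CPM in control and to 1752 to 1989 CPM in RANKL libraries. Spib held 9549 of their 11595 counts and Gp2 0, and the 4 that passed the filter were all higher by the test. The 6 stromal markers summed to 3.44 to 8.60 CPM and to 17.9 to 25.0 CPM, of which Pdgfrb, the only one to pass the filter, held 164 of 196 counts and Dcn 0. The 5 stem cell markers summed to 1216 to 1629 CPM and to 1034 to 1235 CPM, with Olfm4 holding 25229 of 30031 counts, and 3 of them were lower and 1 higher by the test. What part these shifts have in the values below was not tested. In bulk RNA, fewer cells of a type and less RNA per cell cannot be told apart.

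With RANKL, members of all 3 classes rose, and members of 2 of the 3 fell. The effector gene Bok and the BH3-only genes Bcl2l11 and Pmaip1 rose by 4.89, 3.63 and 2.12 fold, the survival genes Mcl1 and Bcl2l1 rose by 1.61 and 1.45 fold, and Bad, Bax and Bak1 fell to 0.616, 0.648 and 0.805 of the control level. Bcl2 and Bcl2l2 did not pass the test. Thus 5 of the 10 members were higher and 3 were lower by edgeR's quasi-likelihood test at an adjusted p below 0.05 over all genes, against 13.6% of all tested genes called higher and 12.4% called lower. With DESeq2, the tool the paper used on raw counts, 5 members were higher but only 1, Bad, was lower, as Bax and Bak1 were not called. The median log2 fold change was 0.19 over the 10 members and 0.00 over all tested genes.

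**Figure D1:**
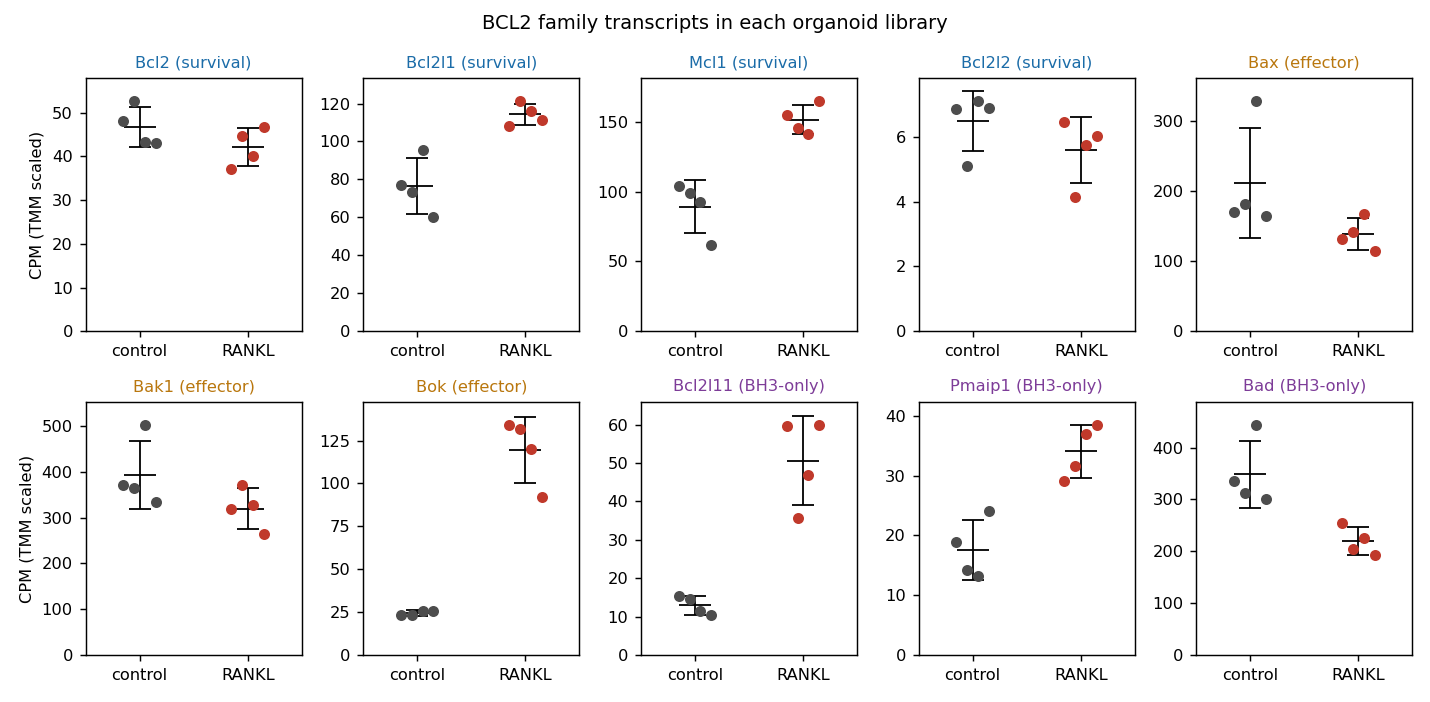
Level of each of the 10 members in scaled counts (CPM, vertical axis from 0) in the 4 control and 4 RANKL libraries; points are libraries, the long dash is the mean and the bars are 1 SD. Bok, Bcl2l11, Pmaip1, Mcl1 and Bcl2l1 lie higher in every RANKL library than in every control library and Bad lies lower, while the groups overlap for Bcl2, Bcl2l2, Bax and Bak1.

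Bok had the widest change of the members. BOK is an effector that resembles BAX and BAK and is kept low in many cells by rapid degradation of the protein. Its level was 23.0, 23.1, 25.9 and 25.8 CPM in the control libraries 1 to 4 and 134, 132, 120 and 92.3 CPM in the RANKL libraries 1 to 4. The 4 control libraries lay within a narrow band, and even the lowest RANKL library, replicate 4, was far above it. The log2 fold change was 2.29 ± 0.14 (SE), with a 95% interval of 2.00 to 2.58 and an adjusted p of 4.5e-14 (edgeR), and the difference ranked 100 of 9971 genes by size. The gene lies on chromosome 1 (chr1:93685660-93695764, plus strand, GRCm38), and no exon of another gene overlaps it in the annotation used.

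Bax and Bak1, the canonical pore-forming effectors, were lower with RANKL, and neither change was free of overlap between the groups. Bax stood at 170, 182, 327 and 163 CPM in control and at 131, 142, 167 and 114 CPM in RANKL libraries. Control replicate 3 lay far above the other control libraries, and RANKL replicate 3 reached into the control range. Bax had a log2 fold change of -0.62 ± 0.16 (95% interval -0.96 to -0.29, adjusted p = 0.0042, edgeR). Without control replicate 3 it was -0.32, still past the threshold with an adjusted p of 0.035 (edgeR), and with DESeq2 the adjusted p was 0.15.

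Bak1 was the most abundant member in both groups. Its levels were 371, 366, 502 and 335 CPM in control and 318, 371, 328 and 264 CPM in RANKL libraries. Control replicate 3 was again the highest, and RANKL replicate 2 lay as high as the middle control libraries. This was a log2 fold change of -0.31 ± 0.12 (95% interval -0.55 to -0.07) and its adjusted p of 0.048 (edgeR) lay just under the threshold. The call was lost under 10 of 17 alternatives, among them the omission of control replicate 3, which left a log2 fold change of -0.18 with an adjusted p of 0.22. Omitting RANKL replicate 1, 3 or 4 also ended the call.

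Among the BH3-only members, Bcl2l11 encodes BIM, which binds every major survival protein. It stood at 15.4, 14.5, 11.4 and 10.3 CPM in control and at 59.7, 35.8, 46.9 and 59.9 CPM in RANKL libraries. The groups did not overlap, although RANKL replicate 2 was clearly the lowest of its group. The log2 fold change was 1.86 ± 0.19 (95% interval 1.48 to 2.24, adjusted p = 3.4e-09, edgeR). The gene spans 36510 bases on chromosome 2 (chr2:128126038-128162547, plus strand).

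Pmaip1 encodes NOXA, a selective partner of MCL1 and a known p53 target. Its levels were 19.0, 14.2, 13.2 and 24.1 CPM in control and 29.1, 31.7, 37.0 and 38.5 CPM in RANKL libraries. The lowest RANKL library exceeded the highest control library, which was the shallow replicate 4. Its log2 fold change was 1.08 ± 0.19 (95% interval 0.70 to 1.47, adjusted p = 4.9e-05, edgeR).

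Bad moved the other way. BAD acts through BCL2, BCL-XL and BCL-W (from Bcl2l2) and is held inactive by growth factor signalling through phosphorylation, which RNA does not show. It stood at 336, 313, 443 and 301 CPM in control and at 254, 204, 226 and 192 CPM in RANKL libraries. Every RANKL library was below every control library. For Bad the log2 fold change was -0.70 ± 0.12 (95% interval -0.94 to -0.46, adjusted p = 3.1e-05, edgeR).

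Of the survival members, Mcl1, whose short-lived protein is known to be needed in the intestinal epithelium, rose most. It was at 104, 99.0, 92.8 and 61.9 CPM in control and at 155, 146, 141 and 165 CPM in RANKL libraries. The groups were well apart, and control replicate 4, the shallowest library, was the lowest. On the log2 scale the fold change was 0.69 ± 0.12 (95% interval 0.44 to 0.93, adjusted p = 5.2e-05, edgeR).

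Bcl2l1 stood at 77.0, 73.3, 95.5 and 60.2 CPM in control and at 108, 121, 116 and 112 CPM in RANKL libraries. The RANKL libraries lay close together above the control range, whose highest value came from replicate 3. This amounted to a log2 fold change of 0.54 ± 0.12 (95% interval 0.29 to 0.79, adjusted p = 0.0013, edgeR).

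Bcl2, the founding survival gene of the family, did not pass the test. Its levels were 48.0, 52.6, 43.3 and 43.0 CPM in control and 37.1, 44.7, 40.2 and 46.7 CPM in RANKL libraries, and the groups overlapped. The log2 fold change was -0.15 with a 95% interval of -0.44 to 0.14 (adjusted p = 0.49, edgeR), so a rise as large as that of Mcl1 lay outside the interval. Bcl2l2, the least abundant member, ranged from 5.10 to 7.10 CPM in control and from 4.13 to 6.46 CPM in RANKL libraries, on 4 to 54 counts per library. Its log2 fold change of -0.23 had an interval of -0.86 to 0.41 (adjusted p = 0.64, edgeR). This spans a fall as large as that of Bad, so a fall of that size was not excluded.

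**Figure D2:**
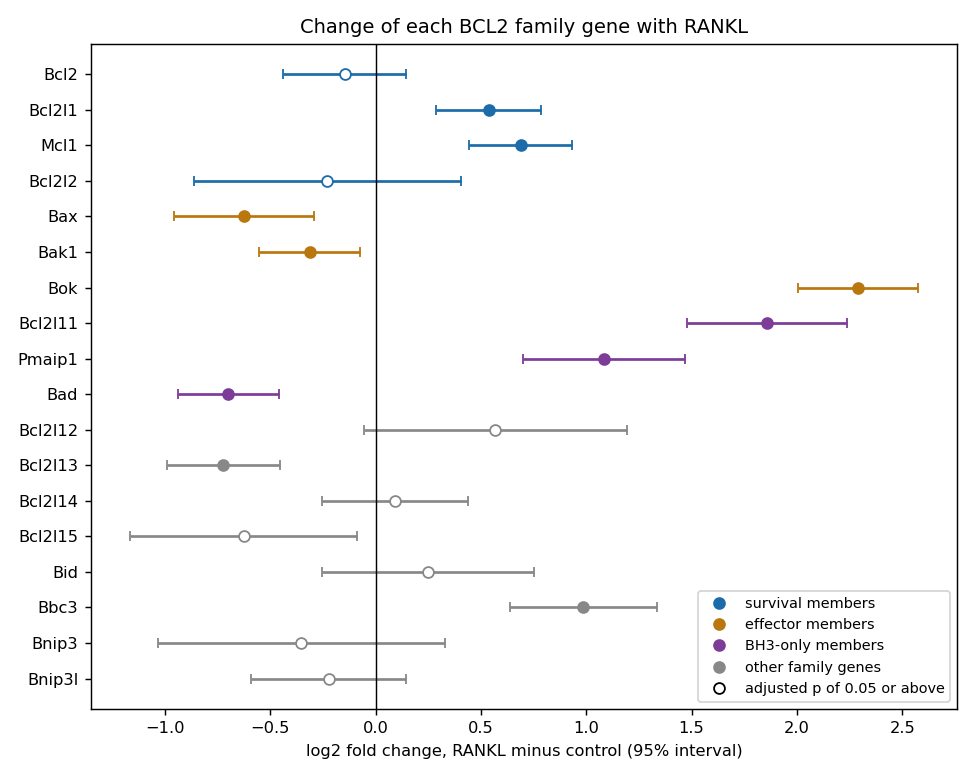
Log2 fold change (RANKL minus control, horizontal axis) of the 10 members and of 8 other family genes that passed the filter, with 95% intervals from edgeR; filled points have an adjusted p below 0.05. Bok, at 2.29, and Bcl2l11, at 1.86, lie farthest to the right, and Bcl2l13, Bad and Bax farthest to the left among the filled points.

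Library by library, 6 of the 10 members (Bcl2l1, Mcl1, Bok, Bcl2l11, Pmaip1 and Bad) had no overlap between the 4 control and 4 RANKL libraries, as did 24.6% of all tested genes. For each of these the exact two-sided permutation test over the 8 libraries gave p = 0.0286, the smallest that 70 assignments allow. Any gene without overlap gets this value, so it adds nothing to the lack of overlap. The same exact permutation test gave 0.0571 for Bax, 0.114 for Bak1, 0.257 for Bcl2 and 0.286 for Bcl2l2.

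The order of the levels changed with these shifts. In control organoids it ran from Bak1 (394 ± 74.2 CPM, SD, n = 4) through Bad (348 ± 65.0), Bax (210 ± 78.1), Mcl1 (89.4 ± 18.9), Bcl2l1 (76.5 ± 14.6), Bcl2 (46.7 ± 4.53), Bok (24.4, with an SD of 1.59), Pmaip1 (17.6 ± 4.99) and Bcl2l11 (12.9 ± 2.43) to Bcl2l2 (6.49 ± 0.931). The neighbours Bak1 and Bad, Bad and Bax, Mcl1 and Bcl2l1, Bok and Pmaip1, and Pmaip1 and Bcl2l11 overlapped in their library values. With RANKL, Mcl1 (152 ± 10.4 CPM) stood in the third place, and Bax (138 ± 22.5), Bok (119 ± 19.1) and Bcl2l1 (114 ± 5.66) followed, each overlapping the next. Bcl2l11, at 50.6 ± 11.6 CPM, moved from ninth to seventh place and overlapped Bcl2, at 42.2 ± 4.34 CPM.

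Within classes, the make-up shifted in a way the class totals did not show. Bok made up 4.02% ± 0.776 (SD, n = 4) of the summed effector CPM in control and 20.6% ± 1.62 in RANKL libraries, while Bak1 went from 63.1% to 55.4% and Bax from 32.8% to 24.0%. Bad made up 91.7% ± 2.17 of the BH3-only sum in control and 72.1% ± 4.04 with RANKL. Bcl2l11 went from 3.48% to 16.6% of that sum and Pmaip1 from 4.82% to 11.3%. Mcl1 took 40.5% of the survival sum in control and 48.3% with RANKL, Bcl2 21.6% and 13.4%, and Bcl2l1 34.9% and 36.5%. Among these shares, that of Bcl2l1 alone overlapped between the groups. Shares within a class are parts of the same sum, so a rise of one member lowers the shares of the others. The lower shares of Bak1 and Bax are thus not separate evidence of a fall, and their CPM values overlapped between the groups.

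The class sums themselves moved less than many of their members. Survival members summed to 219 ± 31.6 CPM (SD, n = 4) in control and 314 ± 11.4 CPM in RANKL libraries, and the groups did not overlap. Effectors summed to 628 ± 153 and 578 ± 76.4 CPM, and BH3-only members to 379 ± 61.3 and 304 ± 30.3 CPM, both with overlapping groups. All 10 members together came to 1226 ± 232 and 1195 ± 70.8 CPM. Control replicate 3 raised the control means of the effector sum and of the total. The effector sum was 563.8, 570.2, 855.3 and 524.5 CPM in control libraries 1 to 4 and 582.8, 644.2, 614.9 and 469.6 CPM in RANKL libraries 1 to 4. The total was 1169, 1142, 1562 and 1032 CPM in the control libraries. The lower effector mean with RANKL therefore rests on that library.

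The balance of survival against death-promoting members depended on how members were weighed. As the log2 ratio of summed CPM within a library, the survival to effector balance was -1.26, -1.31, -1.84 and -1.61 in control and -0.93, -1.03, -1.02 and -0.51 in RANKL libraries, a mean difference of 0.63 toward survival with no overlap. The survival to BH3-only balance, taken the same way, was -0.65, -0.57, -0.97 and -0.96 in control and -0.16, 0.22, -0.03 and 0.18 in RANKL libraries, a mean difference of 0.84. Abundant members set these sums, since Bak1 and Bax made up most of the effector sum and Bad most of the BH3-only sum.

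When each member counted equally, as the mean of log2(CPM + 1), both balances turned. The survival to effector difference became -0.20, with overlapping groups, and the survival to BH3-only difference became -0.46, with none. Leaving Bad out of the summed BH3-only class, a choice made after the data were seen, gave 2.78, 3.00, 3.28 and 2.32 in control and 1.79, 2.23, 1.85 and 1.74 in RANKL libraries, a difference of -0.94. Adding the further BH3-only gene Bbc3 to the full summed class, likewise chosen after the data were seen, gave a difference of 0.70 with no overlap. The balances were not tested between the groups, because a score over members chosen with results known would give no meaningful p.

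**Figure D3:**
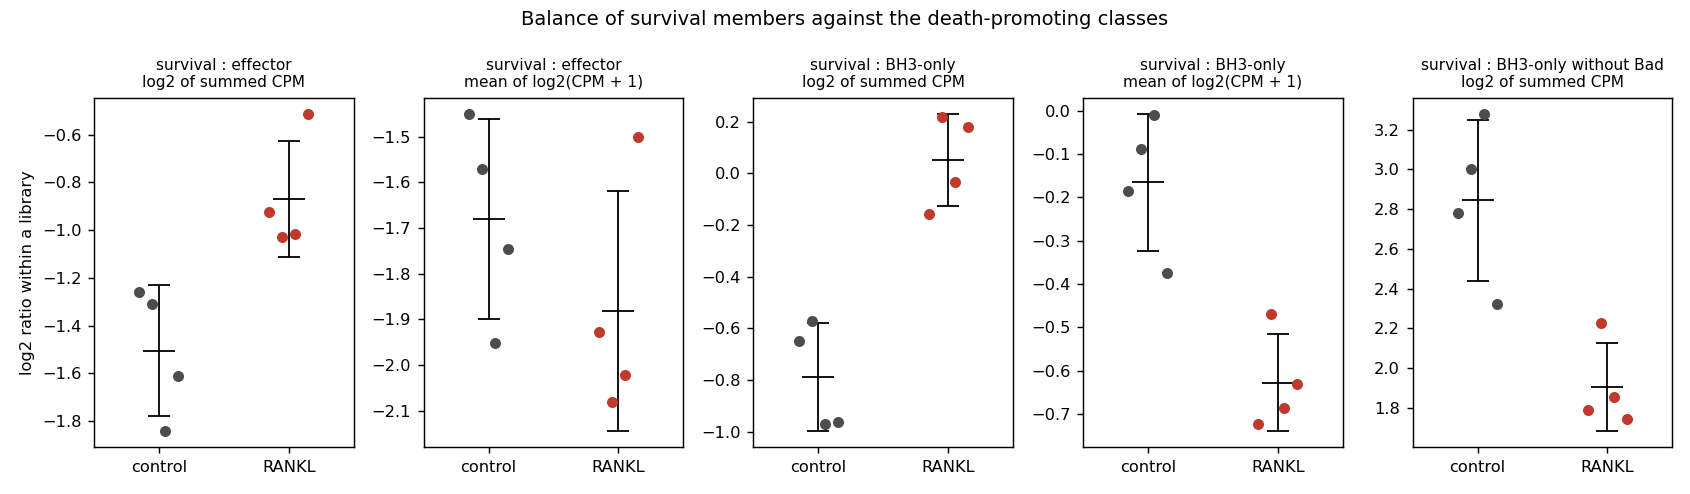
Log2 ratio of survival members to effector or BH3-only members within each library (vertical axis, each panel with its own range), by the summed CPM, by the mean of log2(CPM + 1), and with Bad left out; points are the 4 control and 4 RANKL libraries, with mean and SD. The summed balances lie higher with RANKL, by 0.63 and 0.84, and the other 3 panels lie lower, by 0.20, 0.46 and 0.94.

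Set against each other one pair at a time, the ratios of the 4 survival to the 6 death-promoting members went in both directions. Of 24 ratios, 6 were higher with RANKL without overlap, 10 were lower without overlap and 8 overlapped. The ratios combine the same 10 members, so these counts restate the changes of single members and are not separate evidence. The share among ratios of other genes was not computed. The 6 higher ones were those of Mcl1 and Bcl2l1 to Bax, Bak1 and Bad. Bcl2l1 to Bax, for instance, went from 0.375 to 0.833 as a geometric mean ratio of CPM, and Mcl1 to Bad from 0.255 to 0.696.

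All 4 ratios to Bok and all 4 to Bcl2l11 were lower with RANKL without overlap. Mcl1 to Bcl2l11 went from 6.89 to 3.06, a log2 difference of -1.17, and Bcl2 to Bcl2l11 from 3.66 to 0.849, a log2 difference of -2.11. For the pair MCL1 and NOXA, known binding partners, the Mcl1 to Pmaip1 ratio was 5.13 in control and 4.48 in RANKL libraries, with a log2 difference of -0.20 and overlapping groups.

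**Figure D4:**
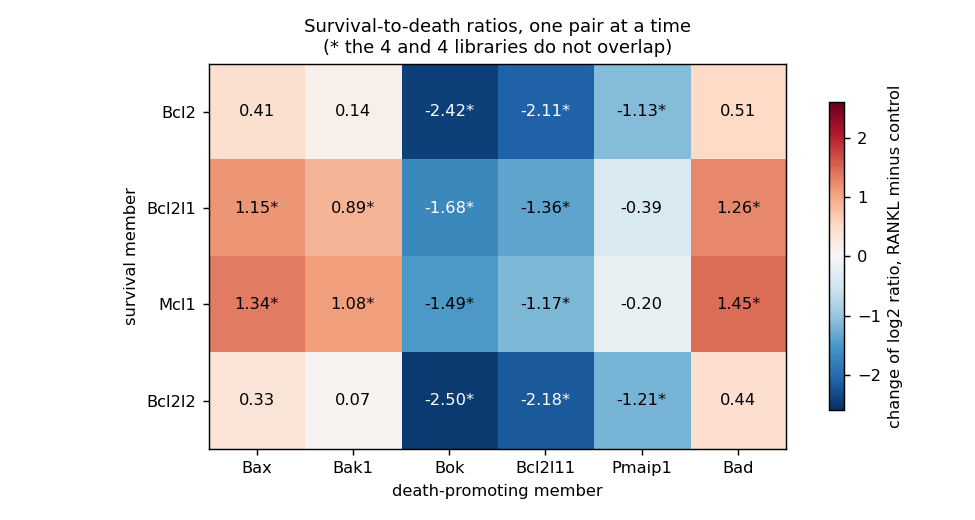
Change of the log2 ratio (RANKL minus control, colour and printed value) of each survival member (rows) to each death-promoting member (columns); an asterisk marks ratios whose 4 control and 4 RANKL libraries do not overlap. The columns of Bok and Bcl2l11 are negative throughout, down to -2.50 for Bcl2l2 to Bok, and the rows of Mcl1 and Bcl2l1 are positive against Bax, Bak1 and Bad.

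Other genes of the family were read from 2 further lists, beside the 13.6% of all tested genes called higher and the 12.4% called lower. Of 8 further survival and related genes, 4 passed the filter and 1, Bcl2l13, was lower, with levels of 70.8, 77.5, 86.9 and 77.4 CPM in control and 50.0, 50.9, 48.0 and 41.7 CPM in RANKL libraries (log2 fold change -0.72 ± 0.13, adjusted p = 8.9e-05, edgeR). BCL2L13 is a mitochondrial protein also known as a mitophagy receptor. Bcl2a1a, Bcl2a1b, Bcl2a1d and Bcl2l10 had 0 counts in all 8 libraries. Of 7 further BH3-only and BNIP genes, 4 passed the filter, and Hrk had 0 counts.

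Among those 4, Bbc3 was higher. It encodes PUMA, which like BIM binds all major survival proteins and is a p53 target. Its levels were 33.1, 35.4, 25.3 and 65.3 CPM in control and 66.2, 71.6, 62.6 and 72.5 CPM in RANKL libraries. The shallow control replicate 4 lay within the RANKL range. The log2 fold change was 0.99 ± 0.17 (adjusted p = 5.1e-05, edgeR). Bid, which links death receptors to the mitochondrion, had a log2 fold change of 0.25 with a 95% interval of -0.25 to 0.75 (adjusted p = 0.50, edgeR).

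Downstream, 12 genes of mitochondrial release and the apoptosome all passed the filter, with 3 higher, 2 lower and a median log2 fold change of 0.02, beside shares of 13.6% higher and 12.4% lower over all tested genes. Htra2 and Diablo, whose products leave the mitochondrion and antagonise inhibitor of apoptosis proteins, rose by 2.33 and 1.45 fold (adjusted p = 1.7e-05 and 0.035, edgeR). Vdac2, a channel of the outer membrane that holds BAK, rose by 1.25 fold (adjusted p = 0.015, edgeR). Another listed Vdac gene was lower, and the last did not pass the test. Endog, a mitochondrial nuclease, fell to 0.707 of control (adjusted p = 0.0092, edgeR). Apaf1, Casp9 and Cycs were among those that did not pass the test.

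Upstream, 18 genes known to control the members or their proteins all passed the filter, with 5 higher, 2 lower and a median log2 fold change of 0.02, where 13.6% of all tested genes were higher and 12.4% lower. Trp53, whose product p53 drives Pmaip1, Bbc3 and Bax, was higher by 0.87 ± 0.19 on the log2 scale (adjusted p = 0.00096, edgeR). Of these targets, Pmaip1 and Bbc3 were higher and Bax was lower, and the activity of p53 was not tested. Foxo1, a forkhead factor known to drive Bcl2l11, was higher by 0.79 ± 0.14, with levels of 31.0 to 49.0 CPM in control and 69.9 to 88.8 CPM in RANKL libraries (adjusted p = 4.9e-05, edgeR). Foxo4 was lower, with a log2 fold change of -0.99 ± 0.15 (adjusted p = 5.9e-06, edgeR), and Foxo3 did not pass the test (adjusted p = 0.65, edgeR). Ywhag, 1 of the 14-3-3 genes whose products hold phosphorylated BAD, rose by 1.43 fold, from 56.8 to 84.5 CPM (adjusted p = 0.0024, edgeR). Another listed 14-3-3 gene was also higher, and the rest did not pass the test. Among these were the more abundant Ywhae (527 CPM in control and 506 CPM in RANKL libraries) and Sfn (420 and 372 CPM).

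The promoter windows of the members were read from RefSeq (GRCm38.p6, 250 bases before to 50 after each start), which gave 13 windows of 9 members. A window of Bcl2l11 and one of Bcl2l1 are shown because these genes rose and the windows held a motif of a factor known to act on them, and the window of Bok is shown as that of the widest change. Capitals mark the FOXO motif GTAAACA, the κB consensus of NF-κB and the GC box GGGCGG, each on either strand, and every sequence runs 5′ to 3′ on the strand of the gene.
Bcl2l11, chr2:128125788-128126087, plus strand: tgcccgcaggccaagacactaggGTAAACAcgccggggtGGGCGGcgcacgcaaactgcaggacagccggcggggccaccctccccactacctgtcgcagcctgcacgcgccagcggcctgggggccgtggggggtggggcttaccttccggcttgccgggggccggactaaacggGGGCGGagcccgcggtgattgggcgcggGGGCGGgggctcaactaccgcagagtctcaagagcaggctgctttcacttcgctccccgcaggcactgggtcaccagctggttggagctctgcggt
Bcl2l1, chr2:152830668-152830967, minus strand: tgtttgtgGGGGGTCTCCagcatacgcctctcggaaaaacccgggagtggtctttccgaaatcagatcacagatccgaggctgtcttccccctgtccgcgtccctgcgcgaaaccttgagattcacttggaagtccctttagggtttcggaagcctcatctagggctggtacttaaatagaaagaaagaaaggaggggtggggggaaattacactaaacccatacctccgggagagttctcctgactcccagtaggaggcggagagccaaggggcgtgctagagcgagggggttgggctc
Bok, chr1:93685325-93685624, plus strand: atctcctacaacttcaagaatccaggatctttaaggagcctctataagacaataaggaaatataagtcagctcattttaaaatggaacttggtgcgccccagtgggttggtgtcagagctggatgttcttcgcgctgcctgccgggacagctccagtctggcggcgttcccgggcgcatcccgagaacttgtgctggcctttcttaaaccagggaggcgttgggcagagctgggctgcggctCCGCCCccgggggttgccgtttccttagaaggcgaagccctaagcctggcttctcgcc

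The FOXO motif was found in 1 of the 13 windows, that of the first Bcl2l11 start, where it began 227 bases before the start, and in 3.65% of 32851 windows of all genes. The κB consensus was found in 1 window, at 1 of 3 starts of Bcl2l1, and in 4.51% of all windows. The GC box was found in 8 of the 13 windows, of 7 members, and in 35.7% of all windows. In the Bok window it was the only one of these motifs found. The window of Mcl1, which also rose, held neither the FOXO motif nor the κB consensus. These matches describe the letters in the windows, and whether any factor acts through them here was not tested.

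The genes whose pattern over the 8 libraries was most like that of a member were named as a description, by Pearson's r of log2(CPM + 1). The comparison covered 9929 tested genes with a mean of at least 5 CPM, and any pair of genes that differ between the groups correlates in such a set. Bok was most like Sox4 (r = 0.998), Vcam1 (0.996) and Ubd (0.995). For Bcl2l11 they were Map4, Cpm and Psmd10 (0.989 to 0.995), and for Pmaip1 Lactb (0.984), Rpl37a and 9530068E07Rik. For Mcl1 they were Crybg2, Hs6st1 and Sgpp1, and for Bcl2l1 Cotl1, Rad52 and Zfpl1 (0.981 to 0.994 over both). The falling members Bad, Bax and Bak1 were most like Mttp, Pgls and Naprt, respectively (0.974 to 0.988).

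In the annotation (GRCm38) Bcl2 lies at chr1:106538178-106714274, Bcl2l1 at chr2:152780668-152831728, Mcl1 at chr3:95658788-95663176 and Bcl2l2 at chr14:54883377-54888234. Bax lies at chr7:45461697-45466898, Bak1 at chr17:27019810-27029009 and Bad at chr19:6941861-6951899. Some members share exonic bases with other genes. Gm20521 overlaps 13.3% of the exonic bases of Bcl2l2 and Gm45808 12.2% of those of Bax on the same strand, and each had 0 counts, so that reads the counting could not assign to 1 gene would be missing from both. Genes on the opposite strand overlap Bcl2 (D630008O14Rik), Bak1 (Ggnbp1) and Bad (Gpr137), and strand was used in the counting.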

How the data were processed

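RNA of 4 control and 4 RANKL-treated organoid libraries was prepared with the QuantSeq 3′ kit and sequenced as single reads of 50 bases. The authors used BBDuk for trimming, bowtie2 to discard ribosomal, mitochondrial and control sequences, STAR for alignment to GRCm38 and featureCounts for stranded counting on genes of Ensembl release 94. The deposited values are raw counts per gene. Groups came from the sample labels. The members and lists were chosen with earlier results of these data known.

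From these counts, edgeR 4.0.16 in R 4.3.3 was used with TMM factors, its filter on low counts, a quasi-likelihood test and Benjamini-Hochberg adjustment over all 9971 tested genes, with a threshold of 0.05. CPM values are TMM scaled. On simulated counts with 200 changed genes, 180 were recovered with 7 false calls. Of the 100 genes changed 2 fold, 84 were recovered. Recovery of smaller shifts, such as those of Mcl1, Bcl2l1, Bad, Bax and Bak1, was not tested separately. The authors tested differential expression with DESeq2. Here DESeq2 1.42.0, limma 3.58.1 and other settings were alternatives. Intervals cover the spread between libraries, and the limit set by a count of 0 (3 counts) ran from 0.384 to 5.14 CPM over the libraries. Named were all members, up to 4 called genes of each other list with the largest change, listed genes at 0 counts, the 3 genes most like each called member and genes that overlap member exons. Genes that did not pass the test were added as context after their values were seen. Annotation was GENCODE M21, on the same build but not the release used for counting, and 54409 of 54532 genes matched. Permutation tests used scipy 1.17.1. The sequence of the Pmaip1 promoter is not used here. Some listed genes are not reported here by name.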

Additional observations from a re-analysis of the deposited data

Results flagged for a closer look

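In 24 groups of 4 libraries (10 members and 2 balances in each condition), the highest or lowest library was tested for standing apart from the rest, and 2 did so, where chance gives about 1 in 20, or 1.2. Bax in control replicate 3 stood at 327 CPM, with the nearest control library at 182 CPM. Bcl2l2 in control replicate 2 stood at 5.10 CPM, with the nearest control library at 6.88 CPM.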

How the results depend on the processing

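Bcl2l1, Mcl1, Bok, Pmaip1 and Bad kept their direction and their call under all 17 alternative fits, and Bcl2l11 under the 16 in which it was tested, since it did not reach 10 counts in every library. The number of members higher stayed between 4 and 5. The number lower was 3 in the reported fit, 1 with DESeq2 (Bad), and 2 with limma-voom, with library totals alone, with an adjusted p of 0.01, with at least 10 counts in every library, without both shallowest libraries and after thinning to the shallowest library. With each library left out in turn it ran from 2 to 3. Bak1 was lost wherever the number was below 3, and Bax was lost with DESeq2 as well. The median of all tested genes lay at 0.10 with DESeq2 and at -0.11 with no filter on low counts. No member changed sign. The survival to effector difference of 0.63 became -0.20 as a mean of log2(CPM + 1) and 0.91 without Bok, and ran from 0.51 to 0.71 with each library left out. The survival to BH3-only difference of 0.84 became -0.46 as a mean of log2(CPM + 1) and -0.94 without Bad, and was 0.64 without Mcl1, with 0.78 to 0.91 over the libraries left out. It was 0.70 with Bbc3 added. After thinning to the shallowest library the survival to effector and survival to BH3-only differences were 0.60 and 0.76. The cause was not tested beyond the weights of the members that these choices change. Same-numbered libraries deviated together with r from -0.03 to 0.10, and libraries of unlike number with r from -0.13 to 0.09. Whether the numbers pair the samples is not stated, and so few libraries of unlike depth cannot decide it. The fit with the replicate block called 5 members higher and 3 lower, the same 8 genes. The 2 shallowest libraries limit Bcl2l2, with 4 counts in each.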
